A study of Mus musculus with 4 samples.

Results

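Loss of Ptbp2 from the Emx1 lineage was examined in newborn cortex by comparing splicing in 2 RNAseq libraries, 1 from Ptbp2-EmxKO cortex and 1 from wild-type littermate cortex, both at postnatal day 1 (P1). These are 2 of the 4 libraries of the series, the others being NesKO and wild-type whole brain at embryonic day 18 (E18). The EmxKO carried 2 floxed Ptbp2 alleles (Ptbp2 loxP/loxP) and Emx1-Cre, the control is labelled WT, and both came from the same mixed background (written C56Bl/6:129S2 in the labels). Emx1-Cre acts in the lineage of projecting forebrain neurons, so interneurons, microglia and vessels of the dissected cortex keep the gene. PolyA+ RNA was read in pairs of 100 nt reads, strand specific at P1. The number of animals in each P1 library is not given in the sources used here. Each group has 1 library, so no difference below has a replicate check, and every Fisher's exact test compares the reads of these 2 libraries and not the genotypes.

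PTBP2 is the neuronal member of the polypyrimidine tract binding protein family. These RNA-binding proteins bind stretches of U and C beside splice sites, most often to keep an exon out of the mRNA, although exons with binding downstream can be included more in their presence. PTBP1 serves progenitors and non-neuronal cells, PTBP2 takes over as neurons are born, and PTBP2 itself declines as neurons mature after birth.

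The targeted exon was examined first, since it checks the labels. Exon 4 of Ptbp2 (173 nt, chr3:119455862-119456034, mm9) lies between the loxP sites and is lost after Cre acts. EmxKO cortex had 152 and 134 reads on its inclusion junctions and 680 reads that skipped it, and the library labelled wild type had 1250 and 1371 inclusion and 604 skipping reads. The E18 libraries gave 0, 0 and 257 such reads in NesKO brain and 644, 242 and 1 in the library labelled wild type there. Inclusion was thus lower in the EmxKO library, as its label says, but the P1 library labelled wild type also skipped exon 4 in many reads, which goes against a fully intact gene, while the E18 library had 1 such read. Below, wild type at P1 names the library so labelled, and each direction is relative to that library. The source of the skipping reads in that library was not tested.

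The unit of measurement was the splicing event, a trio of neighboring exons whose middle part can be included or left out. The deposited inclusion ratio, in percent, was taken as the percent spliced in (PSI). An event was tested when at least 20 junction reads covered it in both P1 libraries, which left 133119 of 192168 events. Junction reads were plentiful: 83110007 reads fell on distinct junctions in EmxKO cortex and 83394001 in wild-type cortex. The median cassette exon had 313 junction reads in EmxKO cortex and 359 in wild-type cortex, at which 3 reads, the floor used here, stand for 0.958% and 0.836% of the reads. An exon was counted as changed at a difference of 10 PSI points, and was called raised or lowered only if the junction reads of the libraries also differed at an adjusted p below 0.05 (two-sided Fisher's exact test, Benjamini-Hochberg over the class). To 1 decimal, the 6 exons just inside the cutoff moved by 10 points and the 8 just outside by 9.9.

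Inclusion rose far more often than it fell among cassette exons, and this held under both rules. Of 6940 cassette exons, 654 (9.42%) moved by 10 points, 474 of them upward (6.83%) and 180 downward (2.59%). With the test of the reads added, 250 exons in 224 genes were called (3.60%): 202 raised (2.91%) and 48 lowered (0.692%). The plot of PSI in both libraries shows that most called exons were partly included in wild-type cortex. The rule sets this in part, since an exon above 90% cannot rise by 10 points and one below 10% cannot fall by 10. The median wild-type PSI of the raised exons was 51.3% (quartiles 30.3% and 65.7%), and 189 of the 202 lay between 10% and 90%. The lowered exons had a median wild-type PSI of 65.9% and a median EmxKO PSI of 42.2%. Over all tested cassette exons, 2711 were above 90% and 1448 below 10% in wild-type cortex.

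**Figure D1:**
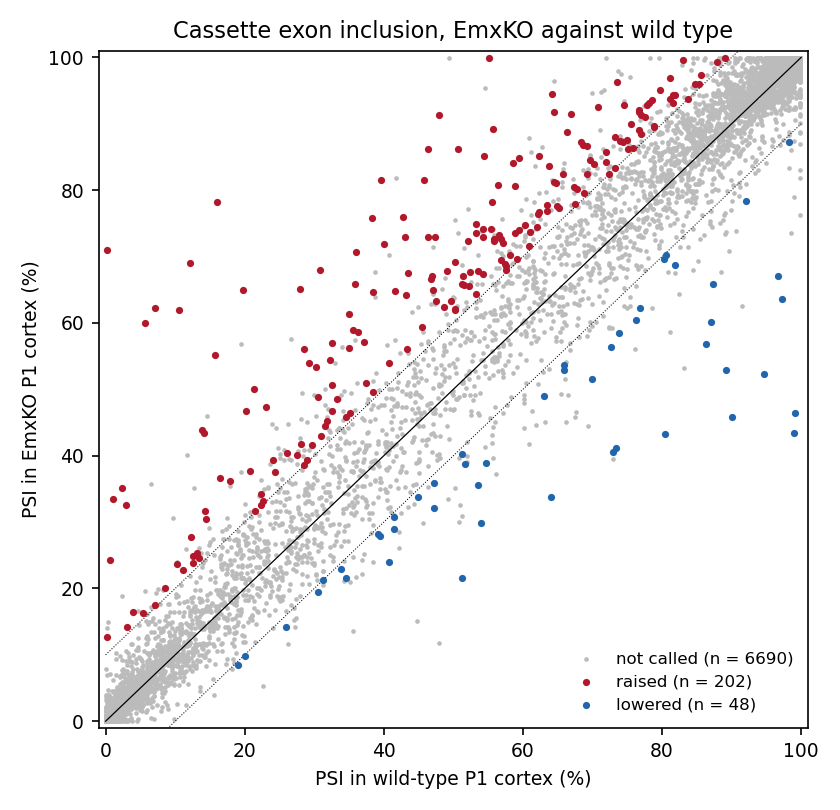
PSI of each tested cassette exon in wild-type (x axis, %) and EmxKO (y axis, %) P1 cortex, 1 library each, the wild type being the library so labelled. Red points are the 202 raised and blue points the 48 lowered exons, gray points were not called, the solid line is equality and the dotted lines are differences of 10 points. The red points lie mostly in the middle of the wild-type range, which the cutoff imposes in part, and the blue points are fewer.

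Raised exons were more often of a length that keeps the reading frame than the background. A length divisible by 3 was found for 139 of the 202 raised exons (68.8%), for 28 of the 48 lowered exons (58.3%), and for 50.5% of all tested cassette exons. Exons of at most 27 nt, often called microexons, made up 20 of the raised exons (9.90%) and 2 of the lowered exons (4.17%), against 4.94% of all tested. Where the middle exon matched an annotated exon, 71.3% of the raised and 72.3% of the lowered exons were wholly coding, against 66.0% of all. Exons found only in transcripts annotated for nonsense-mediated decay, a pathway that destroys mRNA with early stop codons, made up 6.38% of the raised exons (12), fewer than the 9.72% of all, and none of the lowered (0 exons). These shares describe the called exons and were not tested.

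Among called exons with at least 100 junction reads in each library, the 3 with the largest increases were included at 0.2% to 16.0% in wild-type cortex. Sympk encodes symplekin, a scaffold of the machinery that cleaves pre-mRNA at its 3′ end, and its 126 nt exon 2 lies in the untranslated leader at chr7:19613246-19613371 (mm9). In the EmxKO 598 and 1189 reads joined this exon to its neighbors and 310 skipped it, and in wild-type cortex 2 and 1 reads joined it and 584 skipped it. Its PSI was 71.0% in EmxKO cortex and 0.2% in wild-type cortex (adjusted exact p = 4.3e-232). A leader exon of Gpr85, an orphan receptor of the brain, at chr6:13787999-13788122 rose from 16.0% to 78.2%, with 716, 475 and 118 reads on its left, right and skipping junctions in EmxKO cortex and 225, 122 and 740 in wild-type cortex (adjusted exact p = 2.1e-155). Exon 2 of Stam2, an adaptor that sorts ubiquitinated cargo on endosomes, rose from 7.1% to 62.3% (adjusted exact p = 1.1e-46). The annotation lists this 189 nt exon of Stam2 only in a transcript marked for nonsense-mediated decay.

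Actr2, Fmnl1 and Mical3, all genes that act on actin, were grouped here after their values were seen, and of them Mical3 belongs to the actin list counted further on. Actr2 encodes ARP2, a core subunit of the ARP2/3 complex that branches actin filaments, and its 15 nt exon at chr11:19998740-19998754 rose from 10.6% to 61.9%. Its first inclusion junction had 1333 reads in EmxKO cortex against 287 in wild-type cortex, and its skipping junction 885 against 2669 (adjusted exact p = 3.9e-227). A 99 nt exon of Fmnl1, a formin that elongates actin filaments, rose from 47.9% to 91.3% (adjusted exact p = 3.1e-20). The 138 nt exon 22 of Mical3, a monooxygenase that acts on actin, rose from 42.8% to 76.0% (adjusted exact p = 6.5e-29). From junction reads, inclusion of this Mical3 exon was 75.7% in EmxKO cortex (95% Wilson interval 72.2 to 78.9) and 42.0% in wild-type cortex (37.8 to 46.4). The intervals do not overlap, which the choice of large changes imposes in part.

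The other large increases fell in genes of varied function. Magi1, a scaffold with several PDZ domains, included its 89 nt exon 24 at 81.5% in EmxKO cortex and 39.6% in wild-type cortex (adjusted exact p = 1e-07). Scrib, a cell polarity scaffold, included its 84 nt exon 29 at 75.8% against 38.3% (adjusted exact p = 1.5e-25). The 24 nt exon 12 of Csnk1g1, a membrane-bound casein kinase, rose from 15.7% to 55.2% (adjusted exact p = 4.5e-11). The 12 nt exon 17 of Gramd1b, which moves sterol from the plasma membrane to the endoplasmic reticulum, rose from 27.9% to 65.1% (adjusted exact p = 1.2e-41), with 718 inclusion and 362 skipping reads against 290 and 695. Alg9, a mannosyltransferase of N-glycan assembly, included its 102 nt exon 5 at 33.5% in EmxKO cortex and 1.1% in wild-type cortex, where only 2 reads supported it. The other increases among the 15 largest were Ccdc91 (60.0% against 5.7%), the transcribed pseudogene Ube2d-ps (86.2% against 50.7%), the ciliary gene Dzip1 (70.7% against 36.0%) and the kinase anchor Sphkap (89.2% against 55.7%).

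**Figure D2:**
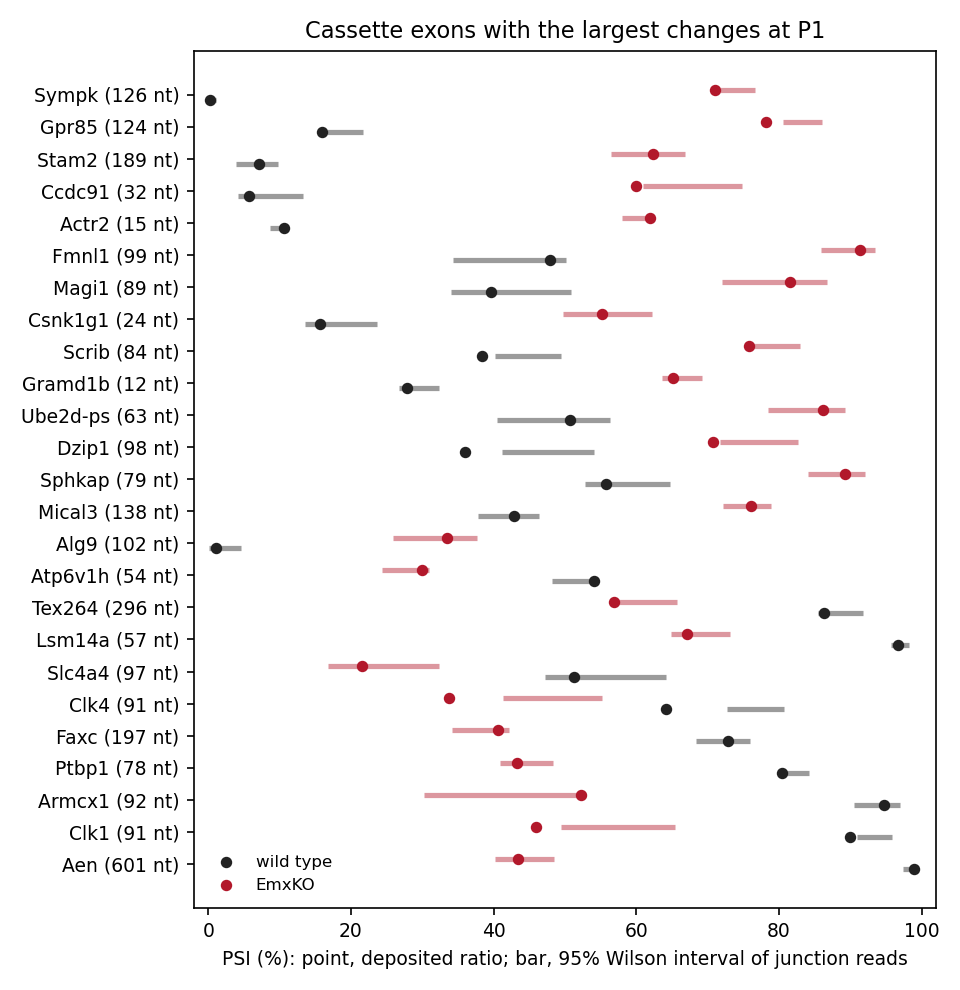
PSI in wild type (black) and EmxKO (red) of the 15 cassette exons with the largest increases and the 10 with the largest decreases, 1 exon per gene, among called exons with at least 100 junction reads in each library. Points are the deposited PSI (x axis, %), bars the 95% Wilson intervals of inclusion from junction reads, and lengths are given in nt. The bars of the libraries do not overlap for any of the 25 exons, which the choice of exons largely imposes. Sympk spans the widest gap, from 0.2% to 71.0%.

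Among the lowered exons were those of Ptbp1, Clk1, Clk4 and Lsm14a, genes that act on RNA and were grouped here after their values were seen. Ptbp1, the paralog of the deleted gene, lost inclusion of its 78 nt exon 8 (as numbered in the matched transcript) at chr10:79322862-79322939, an exon in the linker between the central RNA recognition motifs. Its inclusion junctions had 307 and 220 reads in EmxKO cortex and 1555 and 979 in wild-type cortex, while skipping reads numbered 382 and 328. PSI of this Ptbp1 exon was 43.3% against 80.4% (adjusted exact p = 5.7e-65). Clk1 and Clk4 encode kinases that phosphorylate SR splicing factors, and skipping of their matching 91 nt exon 4 shifts the reading frame. PSI of exon 4 fell from 90.0% to 45.9% in Clk1 (adjusted exact p = 1.8e-20) and from 64.1% to 33.8% in Clk4 (adjusted exact p = 8.5e-10). Lsm14a, a component of cytoplasmic RNA granules, lost inclusion of a 57 nt exon, from 96.7% to 67.1%, with 146 skipping reads in EmxKO cortex and 19 in wild-type cortex (adjusted exact p = 3.5e-37).

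Outside RNA metabolism, the decreases fell in genes of varied function. Aen, a nuclease induced by p53 in apoptosis, had the largest decrease: its 601 nt exon 2 fell from 98.9% to 43.4%, with 314 skipping reads in EmxKO cortex and 5 in wild-type cortex (adjusted exact p = 2.7e-90). A 487 nt form of this Aen exon that shares its end and its skipping reads fell from 99.1% to 46.4%. A 92 nt leader exon of the X-linked Armcx1, a mitochondrial transport protein, fell from 94.7% to 52.3% on 111 and 355 junction reads (adjusted exact p = 2.5e-14). Tex264, a receptor for autophagy of the endoplasmic reticulum, fell from 86.3% to 56.8%. The bicarbonate transporter Slc4a4 fell from 51.3% to 21.6%, the proton pump subunit Atp6v1h from 54.0% to 29.9%, and Faxc from 72.9% to 40.6%.

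The exons below are shown because they are among the largest changes of wholly coding cassette exons of at most 200 nt, 5 raised and then 3 lowered, so that the added or lost stretch of mRNA can be read. Sequences are the exons of GENCODE mouse release 21 transcripts (GRCm38), written 5′ to 3′ on the transcribed strand. Capitals mark matches to any of 3 pyrimidine-rich hexamers of the kind PTB proteins bind. These are the hexamer TTCTCT with its shifted form CTCTCT, which can overlap it, and also the hexamer TCTTTC. Alg9 alone among the 8 printed holds a match.
Magi1: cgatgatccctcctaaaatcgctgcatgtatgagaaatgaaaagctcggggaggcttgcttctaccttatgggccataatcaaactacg
Csnk1g1: ctgcctgaaaatgctcaacctgtg
Gramd1b: gatctgtttcag
Mical3: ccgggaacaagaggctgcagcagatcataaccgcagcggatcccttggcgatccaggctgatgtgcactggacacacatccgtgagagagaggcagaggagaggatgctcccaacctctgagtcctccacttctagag
Alg9: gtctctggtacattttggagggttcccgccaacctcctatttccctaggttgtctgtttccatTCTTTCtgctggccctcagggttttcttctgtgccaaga
Clk1: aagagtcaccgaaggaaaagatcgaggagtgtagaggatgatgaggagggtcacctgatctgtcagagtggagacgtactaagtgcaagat
Ptbp1: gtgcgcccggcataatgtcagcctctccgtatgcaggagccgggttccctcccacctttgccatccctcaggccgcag
Clk4: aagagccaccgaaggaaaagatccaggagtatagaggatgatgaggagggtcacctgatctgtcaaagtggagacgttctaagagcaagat

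The exons of the paralogs Clk1 and Clk4 have the same base at 85 of 91 positions (93.4%), and both were lowered. Among exons of at most 200 nt with a sequence, 11.0% of the raised and 11.4% of the lowered exons held at least 1 of the 3 hexamers, against 10.1% of all 5793, and the reverse complements were found in 11.6%, 11.4% and 14.9%. The exon windows therefore held the hexamers at about the background share, and the flanking introns were not analysed here.

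Over all 6940 tested cassette exons, 2.91% were raised and 0.692% lowered, the background for each gene list below. No list was tested against it, and some lists hold more than 1 called exon of a gene. Among 73 tested exons in 36 genes for postsynaptic scaffolds and receptors, 4 were raised and 0 lowered (5.48% and 0.00%). Mpdz, a scaffold with many PDZ domains, rose from 65.8% to 82.4% (adjusted exact p = 0.04). Dlg4, which encodes PSD95, had PSI of 71.8% and 73.7% at its tested exon 2, and gephyrin (Gphn) 10.2% and 12.6% at exon 8, neither of them called. Exon 2 is not the Dlg4 exon that the study describes as repressed by PTBP2, and no value is given here for that exon.

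Presynaptic release and endocytosis held 8 raised and 2 lowered exons among 107 (7.48% and 1.87%). Cltb encodes clathrin light chain B, and its 54 nt neuronal exon rose from 35.6% to 59.0% on 4066 and 2943 junction reads (adjusted exact p = 2.3e-59). The AP2 adaptor subunit Ap2a1 rose from 78.1% to 93.2% (adjusted exact p = 3.2e-19), and Synj1, the phosphatase synaptojanin that uncoats endocytic vesicles, from 64.8% to 81.1% at a 24 nt exon (adjusted exact p = 1.6e-05). Dynamin 1 (Dnm1), which pinches off synaptic vesicles, carries a mutually exclusive pair of 139 nt exons, 9a at chr2:32188586-32188724 and 9b at chr2:32190202-32190340. Exon 9a took 1102.5 and exon 9b 238 reads as the mean of their junctions in EmxKO cortex, against 344.5 and 595.5 in wild-type cortex. Exon 9a thus made up 82.2% (95% Wilson interval 80.1 to 84.2) of the pair in EmxKO cortex and 36.6% (33.6 to 39.8) in wild-type cortex, so the prevailing Dnm1 exon differed between the libraries.

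Calcium signalling genes held 5 raised exons, in 4 genes, and 0 lowered exons among 56 (8.93% and 0.00%). The raised exons of the plasma membrane calcium pump gene Atp2b4 are forms of 181 nt and 191 nt that share an end and their skipping reads, so they are not separate events, and the shorter rose from 47.3% to 73.0% (adjusted exact p = 6.8e-12). The catalytic calcineurin subunit Ppp3ca rose from 43.5% to 67.5% at its 30 nt exon (adjusted exact p = 7.7e-27). Camk2b, a subunit of the kinase that decodes calcium at synapses, was already at 87.9% in wild-type P1 cortex at its 45 nt exon 16 and reached 99.3%, with 22 skipping reads against 281 (adjusted exact p = 1.8e-75). The calcium channel gene Cacna1c had PSI of 44.3% in EmxKO and 55.7% in wild-type cortex on 46 and 45 reads at exon 22 and was not called. Only 1 and 2 of these reads skipped the exon. Its inclusion by junction reads was thus 94.1% and 90.0%, far from the deposited PSI and in the opposite direction. Exon 22 is not the Cacna1c exon that the study discusses, and no value is given here for that exon.

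Called exons of cytoskeletal genes were mostly raised, as were called cassette exons as a whole (202 of 250). Membrane skeleton and microtubule genes held 10 raised and 0 lowered exons among 136 (7.35% and 0.00%). Clip2, a microtubule plus-end protein, rose from 66.9% to 91.4% (adjusted exact p = 2.7e-78), the axonal motor Kif1a from 32.5% to 50.6% at a 24 nt exon (adjusted exact p = 8.6e-50), the motor Kif21a from 30.2% to 53.4% (adjusted exact p = 0.00028) and the centrosomal Tacc2 from 20.7% to 37.7% (adjusted exact p = 2.4e-21). With the first junction alone, the Kif21a change was 15.4 points with an adjusted p of 0.061 (Fisher's exact test). Actin and dendritic spine regulators held 11 raised and 3 lowered exons, in 11 genes, among 134 (8.21% and 2.24%). Besides Mical3, these included the filament elongation factor Enah at a 12 nt exon (16.4% to 36.7%) and a leader exon of the catenin Ctnnd1 (55.8% to 72.7%). Drebrin (Dbn1), a spine protein, moved from 3.1% to 14.2% on 11964 and 10524 junction reads, the wild type having 9998 skipping reads. The GTPase exchange factor Arhgef7 (89.6% against 84.5%) moved by less than 10 points, and Sorbs2 (95.5% against 84.5%) did not pass the test.

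Adhesion and axon guidance genes held 8 raised and 1 lowered exons among 119 (6.72% and 0.840%). The 801 nt exon 19 of Ncam1, which encodes part of the long cytoplasmic tail of this adhesion molecule, rose from 53.3% to 73.5% on 9996 and 7245 junction reads (adjusted exact p = 1e-114). The semaphorin Sema6c rose from 43.2% to 64.2% at a leader exon (adjusted exact p = 0.00013), the adhesion receptor Adgrl2 from 37.2% to 57.1% (adjusted exact p = 3e-11) and the synapse organizer agrin (Agrn) from 33.3% to 48.5% at a 33 nt exon (adjusted exact p = 5.7e-15).

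Signalling kinases and adaptors were divided, with 4 raised and 3 lowered exons among 104 (3.85% and 2.88%). The phosphatidylinositol transfer protein Pitpnb rose from 21.3% to 50.1% (adjusted exact p = 2.9e-32), the kinase Braf by 24.4 points to 47.4% on 105 and 87 reads (adjusted exact p = 0.024) and the diacylglycerol kinase Dgki from 76.7% to 92.1% (adjusted exact p = 0.0063). Uspl1, a SUMO protease, fell from 41.4% to 29.0% (adjusted exact p = 0.0052). Numb, an adaptor of Notch signalling, had PSI of 36.3% and 22.4% on 40 and 56 reads and was not called.

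RNA-binding proteins and splicing factors were the list with the largest share of lowered exons next to signalling, 6 raised and 4 lowered among 141 (4.26% and 2.84%). Besides Ptbp1, Clk1 and Clk4, the named member was the splicing factor Rbm39, whose 73 nt exon 3 rose from 57.2% to 72.1% (adjusted exact p = 0.022). In Ptbp2 itself, the 34 nt exon 10, whose skipping is known to send the mRNA to decay, stood at 99.9% in EmxKO cortex and 98.9% in wild-type cortex, with 1 and 26 skipping reads. Transcription and chromatin regulators held 4 raised exons, in 3 genes, and 0 lowered exons among 132 (3.03% and 0.00%). This raised share is near that of all tested exons (2.91%). The chromatin remodeling subunit Smarcc2 rose from 43.1% to 72.9% on 6629 and 4163 reads (adjusted exact p = 2.3e-122), Bptf from 35.0% to 56.2% (adjusted exact p = 1.5e-05) and the histone methyltransferase Ehmt2 from 75.1% to 86.2% (adjusted exact p = 3.3e-17).

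Potassium and sodium channel genes held 1 raised exon among 30 (3.33%, near the 2.91% of all tested exons), and 0 lowered. The genes that the study discusses for splicing held 13 raised and 0 lowered exons among 64 (20.3% and 0.00%), and since that choice drew on these samples the count is not independent evidence of direction. Among them, Erc1 rose from 21.5% to 31.6% (adjusted exact p = 0.023). Dst (12.9% against 9.3%), Bin1 (96.6% against 97.6%), Fn1 (53.1% against 63.7%) and Zfp277 (59.9% against 49.2%) were not called. Whether these exons, and the uncalled ones of Gphn, Numb, Arhgef7 and Sorbs2, are those that the study describes was not checked. The Zfp277 exon had only 6 and 9 inclusion reads against 107 skipping reads in EmxKO cortex, so its deposited PSI is far from the 6.55% given by its junction reads. The median change of single lists ran from 0.00 to 1.00 points, beside 0.20 points over all tested cassette exons, so the typical exon of each list barely moved.

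**Figure D3:**
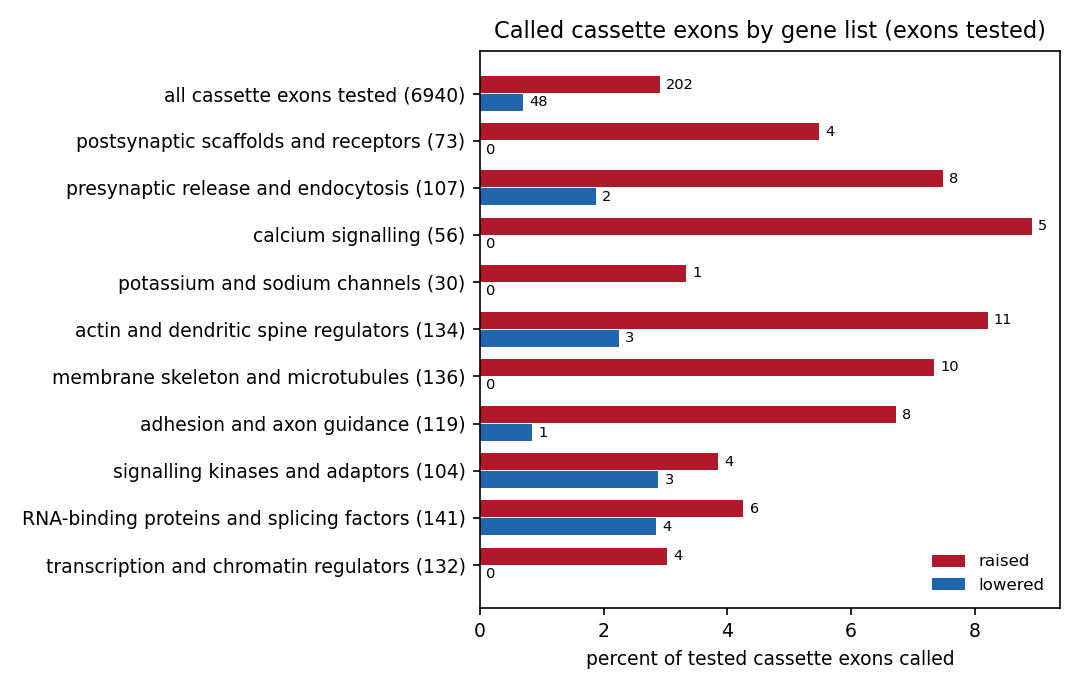
Percent of tested cassette exons (x axis) called raised (red) or lowered (blue) in each gene list, with the number called beside each bar and the number tested in parentheses. The raised share is 8.93% for calcium signalling, where 2 of the 5 exons are overlapping forms in Atp2b4, and 8.21% for the actin list, beside 2.91% of all tested exons. No lowered exon was found in 5 of the 10 lists. The lowered share of all tested exons is 0.692%, at which lists of these sizes would hold few or none.

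The other event classes moved less often, and by the 10-point count they leaned less in direction than cassette exons. Of 119783 exons that the database labels constitutive, 936 (0.781%) moved by 10 points, 529 upward (0.442%) and 407 downward (0.340%), and 50 were also called by the test, 34 raised and 16 lowered. Of the 936, 149 had no skipping read in either library, which leaves their deposited ratio without junction support, and 63 exons counted as changed were listed as cassette exons too. Exon 4 of Ptbp2, described above, led the decreases (67.5% to 15.9%, adjusted exact p = 1.1e-135). The 254 nt exon 2 of Pdzd4, a PDZ and ubiquitin ligase-like protein, fell from 69.5% to 26.7% (adjusted exact p = 1.2e-85). Dchs1, a giant protocadherin of planar polarity, fell from 99.8% to 60.3% at its 210 nt exon 13, with 397 skipping reads in EmxKO cortex and 3 in wild-type cortex (adjusted exact p = 3.1e-143). Raph1 (lamellipodin), which guides actin at the leading edge, rose from 39.8% to 79.4% (adjusted exact p = 2.4e-07), and a leader exon of the coactivator Ncoa6 from 34.2% to 69.6% (adjusted exact p = 0.0014).

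Among alternative 3′ splice sites 188 of 3416 moved by 10 points (5.50%), 106 upward (3.10%) and 82 downward (2.40%), where upward means more use of the longer form. Snap91 encodes AP180, a clathrin assembly protein of synaptic vesicles, and use of its additional 15 nt fell from 51.9% to 10.6%, with 1376 reads on the short form in EmxKO cortex and 644 in wild-type cortex (adjusted exact p = 6.6e-85). The dynein intermediate chain Dync1i1 moved the other way at an 84 nt stretch, from 9.9% to 30.1% (adjusted exact p = 4.5e-17), a change of 20.2 points that was 33.2 points by junction reads. Rlbp1 (32.4% to 56.1%), Elf2 (22.3% to 36.3%) and Fam213a (36.6% to 49.6%) also rose, and Alkbh1 (82.8% to 61.4%), 9330159F19Rik (72.1% to 52.8%) and the noncoding Snhg17 (42.7% to 29.1%) fell, with adjusted exact p from 3.6e-05 to 0.041. For 9330159F19Rik the adjusted p was 0.25 with the first junction alone (Fisher's exact test).

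Among alternative 5′ splice sites 113 of 2135 moved (5.29%), 66 upward (3.09%) and 47 downward (2.20%). Ptprz1, a receptor phosphatase of glia and progenitors, used a 2547 nt extension more, at 92.7% against 75.9% (adjusted exact p = 3.9e-32), and the spine exchange factor Kalrn a 39 nt extension, at 67.3% against 52.1% (adjusted exact p = 5.8e-05). Klhdc4 rose from 67.6% to 82.4% and Map7d1 from 72.6% to 83.2%, the latter with an adjusted p of 0.0039 that became 0.12 with the first junction alone (Fisher's exact test). Armcx1 (75.0% to 36.7%), Ube2j2 (64.1% to 32.5%) and Armcx2 (73.4% to 60.9%) fell. Of 845 retained introns 56 moved (6.63%), 29 upward (3.43%) and 27 downward (3.20%). Retention rose in the 397 nt intron of Ngrn at chr7:87406310-87406706 (35.1% to 56.1%), Zfp383 (64.0% to 82.5%), 9130024F11Rik (46.6% to 62.8%) and Ddx55 (32.0% to 46.1%), and fell in Pomt1 (31.9% to 18.4%), Zmym3 (37.6% to 25.5%) and Tmem134 (46.5% to 35.1%), with adjusted exact p from 1.1e-11 to 0.048. By the test, 8 alternative 3′ sites, 5 alternative 5′ sites and 7 introns were raised, and 7, 3 and 3 were lowered. The percent of upward changes at 10 points was 72.5% for cassette exons, 56.5% for exons labelled constitutive, 56.4% and 58.4% for the alternative 3′ and 5′ sites and 51.8% for retained introns.

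Many, but not all, P1 changes had a counterpart in the NesKO at E18, a comparison in which stage, tissue, Cre line and strand protocol differ together. The controls differ too: the library labelled wild type skipped Ptbp2 exon 4 in 604 reads at P1 and in 1 at E18. EmxKO cortex kept 152 and 134 inclusion reads of that exon, against 0 and 0 in NesKO brain. The part of this in the stage differences was not tested. Of 197 raised exons also tested at E18, 96 (48.7%) moved by 10 points in the same direction there, 101 (51.3%) moved by less and 0 moved by 10 points in the opposite direction. Of 47 lowered exons, 19 (40.4%) moved by 10 points in the same direction, 22 (46.8%) by less and 6 (12.8%) in the opposite direction. Over all 6474 cassette exons tested at both stages, 442 (6.83%) moved upward and 239 (3.69%) downward by 10 points at E18. The exons called at both stages in the same direction numbered 84, which is 34.4% of the P1 calls and 45.7% of the E18 calls. Of the 6474 exons, 244 were called at P1 and 184 at E18. Depth was lower at E18: the median cassette exon had 177 junction reads in NesKO and 195 in wild-type brain, against 313 and 359 at P1. The part of depth in the overlap was not tested. The change itself differed between the stages for 93 exons (Wald chi-square test of the log odds ratios, adjusted p below 0.05), 14 of them among the raised and 9 among the lowered P1 exons.

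Several named exons behaved differently at the stages. The Ptbp1 exon, lowered by 37.1 points at P1, moved by 0.6 points at E18 (47.9% and 47.3% in NesKO and wild-type brain, Wald chi-square adjusted p = 2e-17). Mical3 changed by 33.2 points at P1 and 7.2 at E18, where both libraries were above 80% (87.7% and 80.5%, Wald chi-square adjusted p = 6.7e-05). Smarcc2 changed by 29.8 points against 8.1 (Wald chi-square adjusted p = 1.9e-13), and Lsm14a by -29.6 against -3.8 (Wald chi-square adjusted p = 4.8e-15). Cttn, a cortical actin protein, rose by 10.5 points at P1 and moved by -4.3 at E18 (Wald chi-square adjusted p = 0.00064), and the splicing factor U2af1l4 by 14.4 and -1.7 (Wald chi-square adjusted p = 0.0025). Armcx1 reversed, with a change of -42.4 points at P1 and 47.1 at E18 (Wald chi-square adjusted p = 1.8e-16), and Aen fell by 55.5 points at P1 and moved by 11.1 at E18 (Wald chi-square adjusted p = 7e-23). In contrast, Sympk (70.8 and 71.1 points) and Gpr85 (62.2 and 62.1) had nearly the same change at both stages. The Wald test compares log odds ratios, so a large difference in points need not pass it. Camk2b rose by 11.4 points at P1, from 87.9%, and by 56.2 at E18, from 40.9% (Wald chi-square adjusted p = 0.14).

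**Figure D4:**
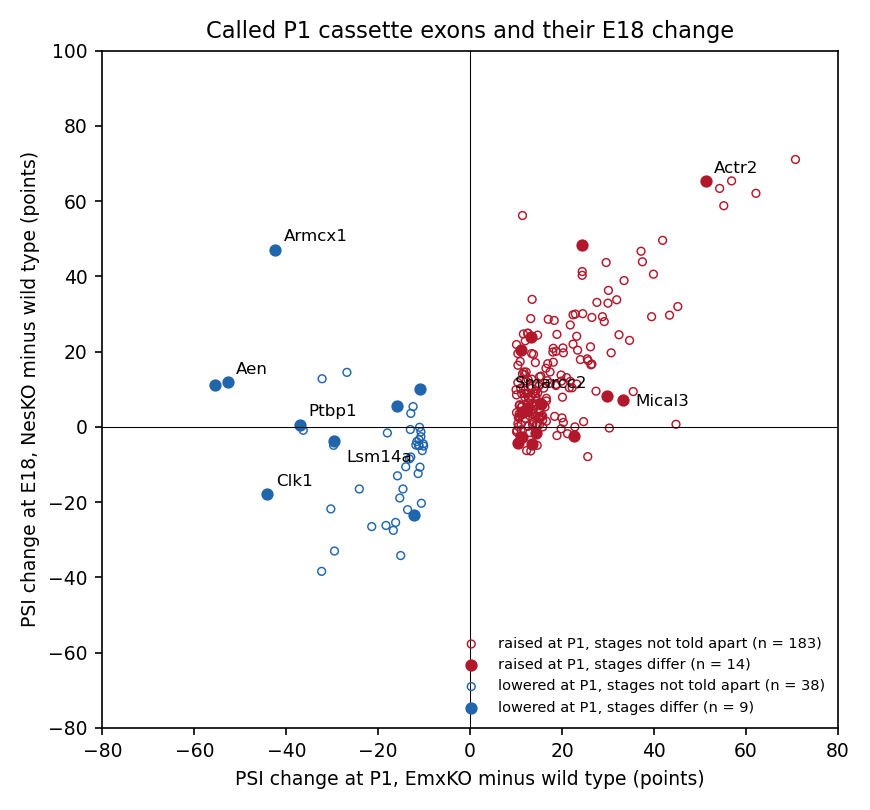
PSI change at P1 (x axis, EmxKO minus wild type, points) and at E18 (y axis, NesKO minus wild type, points) for the 244 called P1 cassette exons tested at both stages. Filled points are the 14 raised and 9 lowered exons whose change differed between the stages by the Wald test. Armcx1 and Aen lie in the upper left quadrant, and most raised exons lie at or above 0 at E18.

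The levels of whole genes, taken from the reads on junctions outside the event, differed between the P1 libraries with base composition. The tested exons were split into 5 bins of like size by the GC content of their transcripts. In the lowest bin (33.0% to 44.8%), the median log2 level ratio of EmxKO to wild type was -0.80, and in the highest bin (55.7% to 70.7%) it was 0.26. Exons whose gene was lower by more than 1 log2 unit made up 37.3% of the lowest GC bin and 0.402% of the highest. PSI did not follow this shift at the median, which changed by 0.10 to 0.20 points in every bin, and raised exons outnumbered lowered ones in each bin. The share raised was 1.47% in the lowest GC bin and 2.63% to 4.10% in the others, and the part of base composition in the calls was not tested.

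**Figure D5:**
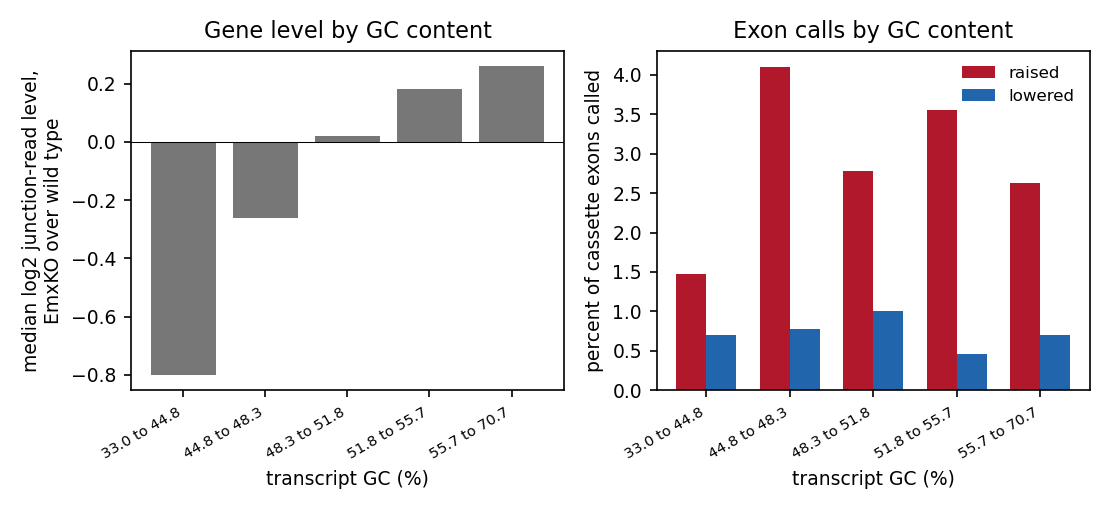
Tested cassette exons in 5 bins of transcript GC content (x axis, %), with the median log2 ratio of gene level, EmxKO over wild type, on the left and the percent of exons called raised (red) or lowered (blue) on the right. The level ratio climbs from -0.80 to 0.26, while raised exons outnumber lowered ones in every bin.

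Levels are therefore given beside the median of the same GC bin. Ptbp1 was lower in EmxKO cortex by 1.13 on the log2 scale, where its bin had a median of 0.18, so the lowered Ptbp1 exon came with fewer Ptbp1 reads overall. Clk1 (-1.05) and Clk4 (-0.93) were close to the median of -0.80 of their own bin, as was Ptbp2 (-0.90). Armcx1 stood lower, at -2.41, and Sympk higher, at 0.70 against 0.18. Over the raised and the lowered exons the median level ratio was 0.05 and -0.05, beside 0.00 for all tested.

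Markers of cell classes were present in both libraries, and none of the listed genes with junctions was at 0. Summed reads of microglial genes were 79.1 per 1000000 junction reads in EmxKO cortex and 49.9 in wild-type cortex, with 9 of 9 genes higher in EmxKO cortex, and of oligodendrocyte lineage genes 117 and 92.6, with 7 of 7 higher. Among these, P2ry12 (21 reads in each library) and Mbp (641 and 639 reads) were nearly level and count as higher only through the library totals. Cortical excitatory neuron genes summed to 514 and 589 (1 of 6 higher in EmxKO cortex), interneuron genes to 434 and 398 (5 of 8), and progenitor and dividing cell genes to 344 and 442 (3 of 10). Astrocyte genes summed to 655 and 720, although 5 of 7 were higher in EmxKO cortex, endothelial and blood genes to 254 and 251 (3 of 6), and striatal genes to 25.6 and 24.2 (2 of 4). Stress and cell death genes summed to 397 and 570, although 8 of 12 were higher in EmxKO cortex. In bulk tissue fewer cells of a type and less RNA per cell cannot be told apart, and the part of cell makeup in the splicing changes was not tested.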

How the data were processed

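PolyA+ RNA of P1 cortex (1 EmxKO and 1 wild-type library) was sequenced by the authors, and exon trios were quantified with SpliceTrap; the submitters' notes also name CASAVA, TopHat, Cufflinks and the build mm9, without versions. The deposited inclusion ratio is a fraction, given by the authors before and after correction, and the deposited junction reads are raw counts. Here 1 trio per middle exon was kept (most junction reads over the 4 libraries). PSI is the corrected ratio in percent. Fisher's exact test used the mean of both inclusion junctions. In the deposited tables the second junction had a median of 0.15 times the reads of the first at 1 to 30 nt and 1.0 at 100 to 200 nt. A read crossing both junctions of a short exon thus appears to be counted on the first only, which was not checked. Intervals (Wilson, 95%, counting error only) therefore use the first junction under 100 nt. Intervals belong to junction reads, so the deposited PSI can lie outside them.

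Genes were named by exon and intron lengths in GENCODE mouse release 21, without converting coordinates: 207487 of 228333 trios matched on all lengths, and 4603 have no name. Named events are the 15 largest increases and 10 largest decreases of cassette exons, 1 exon per gene, 4 per direction in other classes, 4 per gene list, the genes the study discusses, and 4 per direction, 1 exon per gene, with the lowest Wald p for a difference from E18. They needed 100 junction reads in each library, 10 points by both measures and an adjusted p below 0.05, the study's genes excepted. Some named events and 1 exon sequence are not reported here. Members and lists were chosen with earlier results of these data known. Levels were reads on distinct junctions per 1000000. Python 3.11.15, numpy 2.4.6, pandas 2.3.3, scipy 1.17.1 and matplotlib 3.10.9 were used, and the tests were tested on simulated data.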

Additional observations from a re-analysis of the deposited data

Results flagged for a closer look

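The changes of 12 named cassette exons differed between P1 and E18 by the Wald test of the log odds ratios. The change at P1 minus that at E18 was -89.5 PSI points for Armcx1, -66.6 and -64.6 for the 601 nt and 487 nt forms of the Aen exon, -37.7 for Ptbp1, -26.3 for Clk1, -25.8 for Lsm14a and -14.1 for Actr2. It was -9.3 for Dbn1, whose inclusion increased by 11.1 points at P1 and 20.4 at E18. It was 26.0 for Mical3, 21.7 for Smarcc2, 16.1 for U2af1l4 and 14.8 for Cttn. Stage, tissue, Cre line, library protocol and the control's skipping of Ptbp2 exon 4 differ together between the stages and cannot be told apart. The other named exons with a Wald test did not pass its threshold, which does not show that their changes were equal.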

How the results depend on the processing

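With no minimum of reads the counts of changed events rose to 1201 cassette exons, 2744 exons labelled constitutive, 518 alternative 3′ sites, 307 alternative 5′ sites and 137 retained introns. A cutoff of 20 points gave 136, 243, 32, 18 and 7. Adding the adjusted Fisher p gave 250, 50, 15, 8 and 10, and with the first junction alone for exons under 100 nt, chosen after seeing the data, 258, 49, 19, 11 and 10. At least 50 reads gave 529 exons labelled constitutive, 90 alternative 3′ sites and 37 retained introns. The percent of changed cassette exons that moved upward was 64.3% with no minimum, 76.0% at 50 reads, 80.8% with the Fisher p and 79.5% with its first-junction form. Asking for a difference of 10 points as well left 56 of the 93 exons that differed between stages. The cause of these moves was not tested, except that a stricter rule keeps fewer events by construction. Of the 102 named events, the uncalled Cacna1c exon (-11.4 points) reversed to 4.3 with junction reads and 4.1 with the first junction alone, and the adjusted p of 3 named events passed 0.05 with the first junction alone. With the trio with the most skipping reads, the Armcx1 cassette change at P1 was -29.6 points in place of -42.4. Leaving out a replicate was not possible with 1 library per group. No paired analysis was possible because each group has 1 library. The planned search of upstream introns for motifs was not run, as no genome sequence was used here. Junction depth limits exons with few reads: at the median, shares under 0.958% in the EmxKO could not be detected.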
